A study of Gallus gallus with 6 samples.

Results

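The genes described here are the 125 whose read level was higher in every library of chick cranial neural crest carrying an AQP-1 FL construct than in every control library. They were chosen from the deposited counts themselves. Each count was divided by the library total and given per 1000000 counts (CPM), and a gene was taken when its mean over the 6 libraries was at least 5 CPM and its lowest AQP1 value was at least 1.3 times its highest control value. The table lists 17108 Ensembl genes, of which 7396 reached the mean of 5 CPM, so the 125 members are 1.69% of the genes that could qualify. Because both groups' values chose the members, their separation is described below and not tested. All 125 members were also in the fit across all genes (10819 genes), and 21 of them had a control mean under 5 CPM, so they qualified on level through their AQP1 values.

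Premigratory neural crest of White Leghorn embryos received either AQP-1 FL or pMES, the vector labelled as control overexpression, by electroporation. The embryos were incubated for a further 24 h to about Hamburger-Hamilton stage 15. Live YFP-positive cells of the stream beside rhombomere 4 were then sorted for bulk RNA-seq. Every library is thus a pool of electroporated, sorted cells, from 4 embryos for each of the AQP1 libraries (numbered 1, 2 and 3) and from 5 embryos for each of the pMES libraries (numbered 1, 3 and 4). The promoter of the construct is not given in the sources used here.

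Cranial neural crest cells arise at the dorsal edge of the neural tube, leave it as streams, and go on to form skeleton, ganglia and pigment cells of the head and neck. AQP1 is a plasma membrane channel that lets water follow osmotic gradients, and it has been studied in migrating cells for its place at the cell edge. The libraries therefore bear on which transcripts are at a higher level in migrating crest that received a construct for this channel.

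The count table identifies genes by Ensembl number alone, and it does not pair them with names. The RefSeq gene table at hand has 0 rows with an Ensembl identifier, so 0 of the 17108 genes received a symbol. The transfected gene could therefore not be looked up, and markers of neural crest or of other cell types could not be read. The 2 members given by identifier are the most widely separated one and the most abundant one, and further members are given by their rank on these measures. Ranks 1 to 125 run from the widest separation, or from the highest mean level, downward.

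Library totals ran from 28116856 to 29607133 counts in AQP1 and from 23423235 to 26019025 in pMES, so the AQP1 libraries were all deeper. The submitters state only a minimum number of alignments per sample, which is far below these totals, and how alignments became counts is not given in the sources used here. pMES libraries 1 and 4 had 11948 and 11918 genes with at least 1 count, against 13026 to 13416 in the other 4 libraries. In this table of amplified low-input RNA, 3 counts correspond to between 0.101 and 0.128 CPM. The labels call the libraries biological replicates. Where a group's spread is given, it is the SD over 3 libraries.

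The members were mostly genes of modest level. Their mean over the 6 libraries had a median of 19.6 CPM and a range from 5.28 to 1372 CPM, while the median of all 7396 genes at this level was 37.9 CPM. That mean includes the AQP1 values, which the rule required to be high. The pMES mean alone had a median of 13.1 CPM in the members and 37.2 CPM in the 7396 genes. Between 5 and 10 CPM, 32 of 1187 genes were members, a share of 2.7%. The share was 2.41% between 10 and 20 CPM (31 of 1286 genes) and 1.96% between 20 and 50 CPM (34 of 1735). It was 1.35% between 50 and 100 CPM (16 of 1184) and 0.599% at 100 CPM or more (12 of 2004). Replicate spread also varied with level. The median coefficient of variation (SD as a percent of the mean) within pMES was 34.2% for genes between 5 and 10 CPM and 15.0% for genes at 100 CPM or more. Within AQP1 the same medians were 19.4% and 9.37%. The part of this spread in the share of members was not tested.

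**Figure D1:**
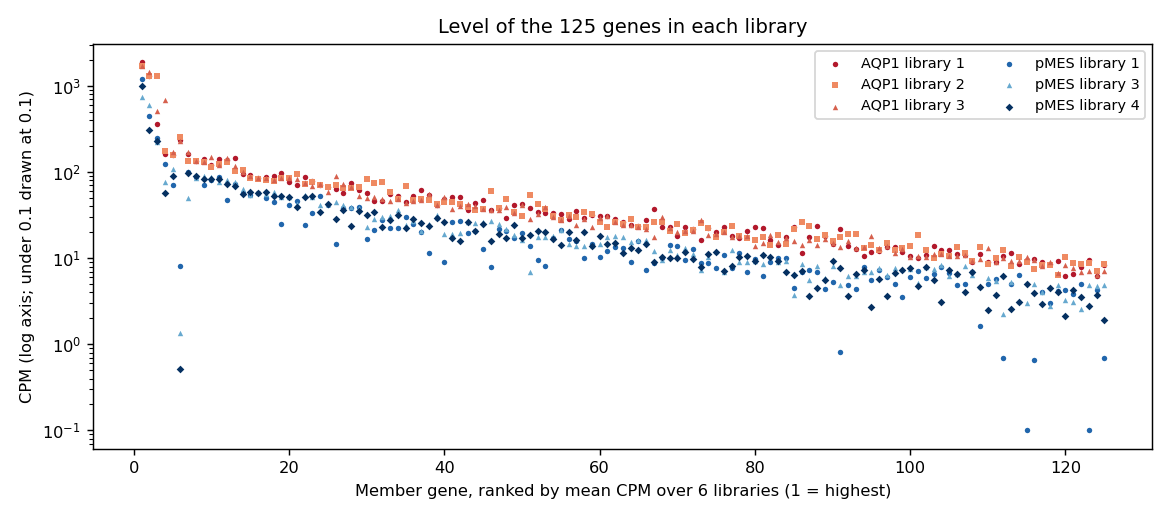
CPM (log axis) of each of the 125 members in each of the 6 libraries, with members ordered from the highest to the lowest mean level. AQP1 libraries (red shades) lie above pMES libraries (blue shades) for every member, as the rule requires, and the member ranked 6th by level has the widest gap.

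Most members differed between the groups by a modest factor. The ratio of the AQP1 mean to the pMES mean had a median of 1.97 and lay between 1.38 and 4.15 in all members but 1. Of the 125 members, 3 had a ratio under 1.5, 61 lay from 1.5 to under 2, 47 from 2 to under 3, and 14 at 3 or more. Only 1 member exceeded 5. The median over all 7396 genes was 1.05, so the scale of library totals places the typical gene slightly above 1. In bulk samples, fewer cells of a type and less RNA per cell cannot be told apart, and this holds for every ratio given here.

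ENSGALG00000005209 was the exception in size among the members. It had 6990, 7282 and 6740 counts in AQP1 libraries 1, 2 and 3, which are 237.8, 259 and 227.7 CPM. In pMES libraries 1, 3 and 4 it had 211, 32 and 12 counts, which are 8.11, 1.35 and 0.512 CPM. The AQP1 values were close together and the control values were all far below them, with pMES library 1 the highest control. The means were 241.5 ± 16.0 CPM in AQP1 and 3.32 ± 4.17 CPM in pMES (SD, n = 3 each), a ratio of 72.7. Its lowest AQP1 value was 28.1 times its highest pMES value, and the next member in this order reached 2.84. In edgeR's fit on TMM-scaled libraries its log2 fold change was 6.10 (standard error 0.825, derived from the F statistic of the test). Without pMES library 1 it was 7.93. ENSGALG00000005209 ranked 6th among the members by mean level and 1st by separation. With all 6 libraries, the highest log2 fold change of the 10819 genes tested was 10.67, in a gene left out for its level. Among genes with a mean of at least 5 CPM, that of ENSGALG00000005209 was the highest. Which gene the identifier ENSGALG00000005209 denotes is not stated in the table.

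ENSGALG00000012726 was the member with the most reads. It measured 1881, 1688 and 1717 CPM in AQP1 libraries 1, 2 and 3 and 1194, 754.8 and 996.5 CPM in pMES libraries 1, 3 and 4. The AQP1 libraries differed little from each other, and the control libraries spread more widely below them. The means were 1762 ± 104 CPM and 981.7 ± 219.9 CPM (SD, n = 3 each), a ratio of 1.79. Its lowest AQP1 value stood 1.41 times above its highest control value, which placed it 80th by separation. The same fit gave it a log2 fold change of 0.77 (standard error 0.164).

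**Figure D2:**
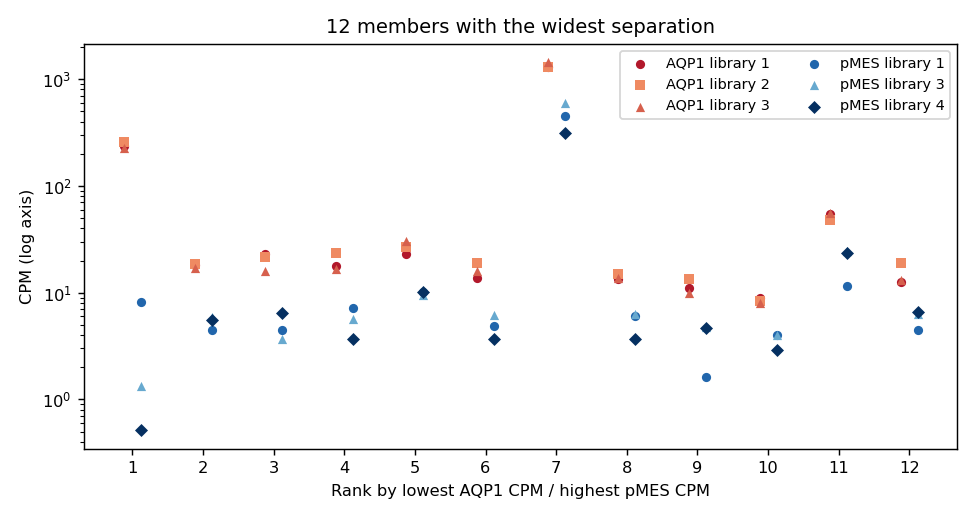
CPM (log axis) of the 12 members with the largest ratio of the lowest AQP1 value to the highest pMES value, with 1 point per library. Rank 1, ENSGALG00000005209, has a ratio of 28.1, and ranks 2 to 12 lie between 1.91 and 2.84.

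Separation was narrow for most of the list. The ratio of the lowest AQP1 to the highest pMES value had a median of 1.46 and upper and lower quartiles of 1.59 and 1.36. It was under 1.4 in 42 members, at least 1.5 in 46 and at least 2 in 9. The 3 members closest to the threshold had ratios of 1.308, 1.306 and 1.303, with lowest AQP1 values of 68.2, 114.9 and 23.2 CPM. Just outside were 3 genes with ratios of 1.29993, 1.29974 and 1.29969, whose highest control values were 41.6, 6.91 and 29.6 CPM. On the level criterion, the 2 members closest to the minimum had means of 5.28 and 5.4 CPM. The 2 nearest genes below it that met the ratio had means of 4.79 and 4.53 CPM.

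**Figure D3:**
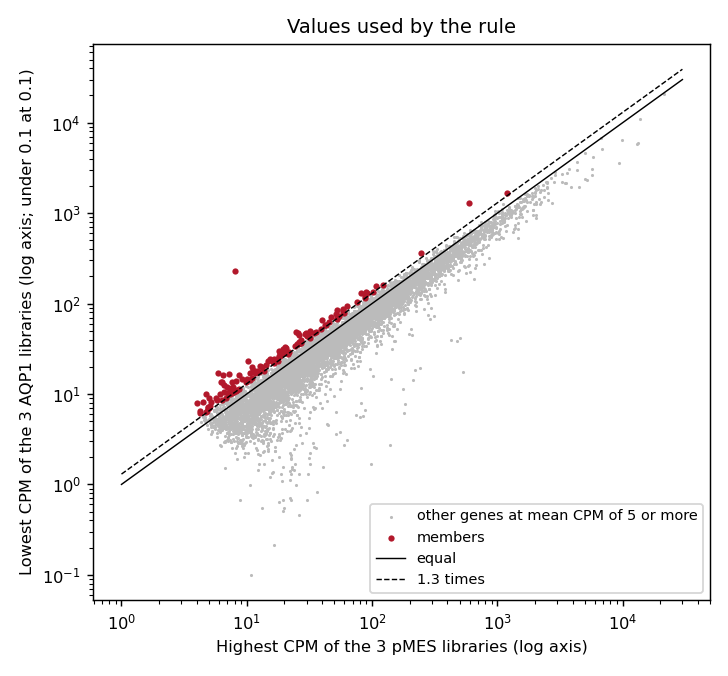
Lowest AQP1 CPM against highest pMES CPM (both log axes) for all 7396 genes with a mean of at least 5 CPM, with the 125 members in red above the dashed line at 1.3 times. The members form a band along the line, except ENSGALG00000005209 at 8.11 and 227.7 CPM.

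Read depth limits how exactly these ratios are known. An exact 95% interval was computed for the ratio between the 2 extreme libraries, which covers counting error only and uses the values that chose the members. Its lower bound lay above 1.3 in 55 members. For the remaining 70 members the counts do not settle on which side of the threshold the ratio lies. Reads carried no molecular identifiers in the protocol as described, so amplified copies of a molecule are counted separately and the true intervals are wider.

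Behind ENSGALG00000005209, 8 members kept the groups at least 2 times apart. The member ranked 2nd measured 18.2, 18.6 and 16.9 CPM in the AQP1 libraries and 4.42, 5.94 and 5.59 CPM in the pMES libraries. Both groups were tight, and the means of 17.9 ± 0.935 and 5.32 ± 0.797 CPM (SD, n = 3 each) gave a ratio of 3.37. The member ranked 3rd measured 23.0, 21.7 and 16.0 CPM in AQP1 and 4.50, 3.71 and 6.45 CPM in pMES. AQP1 library 3 was its lowest treated value, and its ratio of means, 4.15, was the highest after ENSGALG00000005209.

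The member ranked 5th differed from these in its even control level. It measured 10.1, 9.44 and 10.2 CPM in the pMES libraries and 23.0, 26.6 and 30.3 CPM in the AQP1 libraries. The control coefficient of variation was 4.13% and the ratio of means was 2.69. The member ranked 7th was the only one of these 8 at high abundance. Its AQP1 values were 1297, 1300.5 and 1436 CPM and its pMES values were 448.1, 596.7 and 310.2 CPM. The coefficient of variation was 5.88% in its AQP1 libraries and 31.7% in its controls. The ranks between and after these, 4th, 6th, 8th and 9th, had AQP1 means from 11.5 to 19.3 CPM and ratios of means from 2.63 to 3.50.

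The abundant members differed from each other in spread. In the member ranked 8th by level, all libraries of a group nearly coincided, at 133.7, 135.4 and 134.4 CPM in AQP1 and 87.7, 84.6 and 90.0 CPM in pMES. Its means of 134.5 ± 0.838 and 87.5 ± 2.73 CPM (SD, n = 3 each) differed by a ratio of only 1.54. In the members ranked 3rd and 4th by level, by contrast, 1 AQP1 library carried much of the difference. The member ranked 3rd had 365.5, 1314 and 516.6 CPM in AQP1 libraries 1, 2 and 3, against 248.1, 224.2 and 227.8 CPM in pMES libraries 1, 3 and 4. The member ranked 4th had 161.5, 173.5 and 690.3 CPM in AQP1 and 123.3, 76.6 and 57.8 CPM in pMES. These were the 2 members in which a single AQP1 library stood at least 2 times above both others. It was library 2 in the former and library 3 in the latter, so no single library was high in both. Their SDs within AQP1 were 509.7 and 301.9 CPM (n = 3), and their ratios of means were 3.14 and 3.98. The ratios of their lowest AQP1 to their highest pMES value were only 1.47 and 1.31.

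Across the list, the gap between the groups was set against the spread inside them. In 68 of 125 members the distance in CPM from the lowest AQP1 to the highest pMES value was greater than the range of either group. In 14 members it was smaller than both ranges. It exceeded the AQP1 range in 82 members and the pMES range in 97. The median coefficient of variation of the members was 10.2% within AQP1 and 20.5% within pMES, against 12.8% and 21.1% over the 7396 genes. AQP1 libraries varied less than pMES libraries in 73.6% of the members and in 74.8% of those genes. These medians are not matched for level. Within pMES the members' median was below that of all genes in every class of mean level under 100 CPM. Between 5 and 10 CPM it was 27.02% against 34.17%. At 100 CPM or more it was higher, at 21.64% against 15.04%. Within AQP1 the members' median was lower in every class, and between 5 and 10 CPM it was 10.02% against 19.42%. The rule admits genes with tight groups more readily, so these comparisons are a description and not a test of the members' spread. In 58 members the 3 AQP1 values lay within 1.2 times of each other, in 26 the 3 pMES values did, and in 12 both did. Neither these counts nor those of the gap against the ranges were made over the 7396 genes, so they mark no trait of the members.

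Some members had 1 control library far below the others. In 19 members 1 pMES library lay at least 2 times below both others, which was library 1 in 14 members, library 4 in 4 and library 3 in 1. These are 15.2% of members, against 554 or 7.49% of the 7396 genes. The share for library 1 was 11.2% of members, against 2.27% of the 7396 genes. For library 4 it was 3.2% against 3.14%, and for library 3 it was 0.8% against 2.08%. The control values helped to choose the members, and the 2 sets of genes were not matched for mean level. These shares are therefore a description only. pMES library 1 was at 0 counts in 2 members, where a count of 0 allows up to 3 counts or 0.115 CPM. The first of these had 72 and 117 counts in pMES libraries 3 and 4 and 279, 254 and 302 counts in AQP1. The second had 117 and 65 counts in those controls and 277, 247 and 209 counts in AQP1. In both, the 2 remaining controls were well above the floor and below every AQP1 library.

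Every library set the boundary of the list for some members. The highest control value came from pMES library 3 in 56 members, from library 4 in 36 and from library 1 in 33. Among all 7396 genes the order differed, with library 1 the highest control in 2644 genes, library 3 in 2456 and library 4 in 2296. The lowest AQP1 value came from library 3 in 53 members, from library 1 in 39 and from library 2 in 33. Over the same 7396 genes AQP1 library 2 was most often the lowest, in 2852 genes, and library 3 least often, in 2092. Set against each control library alone, the median ratio of a member's AQP1 mean was 2.01 for pMES library 1 (over the 123 members with a count there), 1.79 for library 3 and 1.92 for library 4. The same medians over the genes at this level were 1.05, 1.08 and 1.07.

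Together the members took 0.867%, 0.947% and 0.915% of all counts in AQP1 libraries 1, 2 and 3 and 0.431%, 0.429% and 0.413% in pMES libraries 1, 3 and 4. Their summed level was 9097 ± 402 CPM in AQP1 and 4245 ± 96.9 CPM in pMES (SD, n = 3 each), a ratio of 2.14. A few genes made up much of this sum. The member with the largest difference in CPM, ranked 2nd by level and 7th by separation, supplied 18.4% of the summed difference, the first 3 supplied 44.8% and the first 10 supplied 61.6%. Without the 4 most abundant members the other 121 summed to 4917 ± 111 CPM in AQP1, from 4790 to 4994, and to 2492.5 ± 179 CPM in pMES, from 2294 to 2642. The rule fixed in advance that both sums would be higher in every AQP1 library than in every pMES library.

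The fit across all genes gave the background for these differences. At the threshold stated for the series, read as an unadjusted p under 0.05 with a fold change above 1.5, edgeR's quasi-likelihood test called 310 genes higher in AQP1, which is 2.87% of the genes tested, and 108 of the 125 members were among them. At an unadjusted p under 0.05 alone it called 467 genes higher, or 4.32%, of which 117 were members. The other 8 members had a median coefficient of variation of 8.24% within AQP1. Within pMES their values ran from 3.35% to 96.2%, and the median of 30.2% was near none of them. With Benjamini-Hochberg adjustment the same test called 0 genes higher, or 0%, and 0 members, and the smallest adjusted p of a member was 0.13. DESeq2's Wald test, also adjusted, called 71 genes higher, or 0.657% of those with an adjusted p, and 54 of them were members. Since the same contrast chose the members, these counts are a description only. The members' median log2 fold change was 0.91, against -0.01 over all genes tested, and their standard errors had a median of 0.257.

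The list and the threshold of the series overlap in part. The 108 shared genes are 86.4% of the members and 34.8% of the 310 genes. Of the other 202 genes past that threshold, 80 had a mean under 5 CPM, 110 had groups apart by less than 1.3 times, and 12 had groups that overlapped. Among the 2282 genes with a mean from 1 to under 5 CPM, 69 met the 1.3 ratio and were left out for their level only.

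The size of the list depends on how libraries were scaled. On library totals, groups did not overlap and were higher in AQP1 in 996 of the 7396 genes, or 13.5%, and lower in 414, or 5.6%. That imbalance was not kept under other scalings. Higher and lower genes without overlap numbered 699 and 624 with TMM and 654 and 645 with upper quartile factors. With DESeq2's size factors the balance reversed, at 656 higher and 694 lower. The 1.3 ratio left 125 higher genes (1.69%) and, mirrored, 46 lower ones (0.622%), so 73.1% of the genes apart by this ratio were higher. On TMM-scaled library sizes the counts were 93 higher and 63 lower, a share of 59.6%, and all 93 were among the 125 members. With DESeq2's size factors they were 91 and 71, a share of 56.2%, and with upper quartile factors 86 and 66, a share of 56.6%. On TMM-scaled sizes 32 members fell under the 1.3 ratio. The smallest ratio of a member under these 3 scalings was 1.16. A scaling factor moves all genes of a library alike, and these factors were too small to turn the direction of a member chosen at 1.3 times, so the kept direction is no sign of stability.

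**Figure D4:**
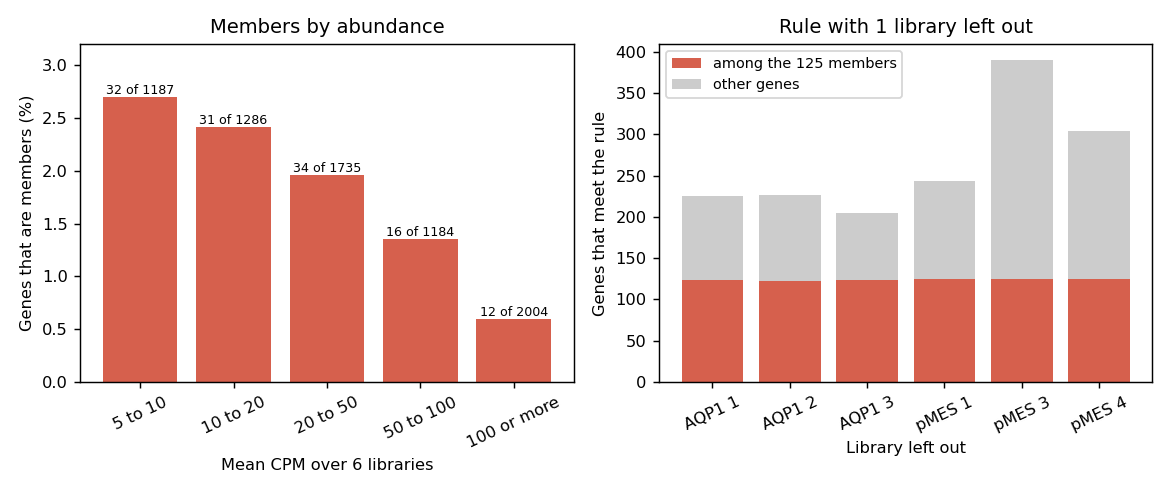
Left, the percent of genes in each class of mean level that are members, with their numbers, falling from 2.7% to 0.599%. Right, the number of genes that meet the same rule when 1 library is left out, from 205 without AQP1 library 3 to 390 without pMES library 3, with those among the 125 members in red.

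Single libraries also bear on the size of the list. Leaving out a library relaxes the ratio by construction, since fewer values must be separated, while the mean level is taken anew over the remaining libraries. Of the 125 members, 123, 122 and 124 still met the rule without AQP1 libraries 1, 2 and 3. All 125 met it without any 1 pMES library. The count of genes that met the rule rose to 225, 226 and 205 without AQP1 libraries 1, 2 and 3, and to 243, 390 and 304 without pMES libraries 1, 3 and 4. pMES library 3 thus kept the most genes out of the list, 265. It also had the most detected genes of the controls, and a link between these facts was not tested. With that library as the only control, after both pMES libraries 1 and 4 were left out, 920 genes met the rule. This last count was made after the data had been examined.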

How the data were processed

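The deposited table holds raw counts per Ensembl gene, 1 column per library. Per the labels' protocols, the authors made cDNA with SMART-seq v4 and libraries with Nextera XT, and aligned single-end reads to chicken galGal4 with Ensembl 84 annotation using STAR 2.5.2b. The counting tool, strand setting and treatment of multi-mapping reads are not given in the sources used here, so counts of overlapping or near-identical genes are uncertain.

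Columns were mapped to samples by title. CPM was computed on column totals. The fit across all genes used edgeR 4.0.16 in R 4.3.3: the quasi-likelihood test with TMM, filterByExpr, all 6 libraries, no covariate and Benjamini-Hochberg adjustment. Standard errors for this fit were derived as the absolute log2 fold change divided by the square root of the test's F statistic. The script was tested on simulated data. Alternatives were DESeq2 1.42.0, other scalings, filters, ratios and mean levels, thinned counts, a block for the replicate number, and leaving out single libraries. With 3 libraries against 3, an exact two-sided permutation test cannot give a p below 0.1. Every pair of columns differed by more than counting noise (chi-square per degree of freedom 31.2 or more). By this value pMES library 3 was nearer to AQP1 libraries 3 and 2 (61.4 and 69.2) than to pMES libraries 4 and 1 (91.8 and 123). Its value with AQP1 library 1 was 119. pMES library 1 was nearest to AQP1 library 1 (103), and pMES library 4 to pMES library 3 (91.8). Members were chosen with earlier results of these data known, as were the choices of tests. The rule for named genes took the member of largest ratio and that of highest mean CPM, by identifier, since no names could be matched. Gene lists and cell type markers prepared by symbol were not used for the same reason. The labels name no batch.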

Additional observations from a re-analysis of the deposited data

How the results depend on the processing

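The number of members, 125, moved with the ratio required: 996 genes at a ratio of 1, 46 at 1.5 and 9 at 2. With a mean of at least 1, 10 or 50 CPM it was 194, 93 and 28. It was 93 with TMM, 91 with DESeq2's size factors, 86 with upper quartile factors and 129 with counts thinned to the smallest library, of which 121 were among the 125. Leaving out 1 library gave from 205 to 390 genes, and 920 met the rule with pMES libraries 1 and 4 left out.

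At an adjusted p under 0.05, edgeR's quasi-likelihood test called 0 genes higher in the reported fit, 3 without a filter and 1 with pMES libraries 1 and 4 left out, a fit in which the lone control is assumed to vary like the AQP1 libraries. Leaving out 1 library gave from 0 to 1 genes, and the same range of members. The single gene, called without pMES library 1, was ENSGALG00000005209. DESeq2's Wald test, run only with all libraries kept, called 71 genes and 54 members. The cause of the difference between tools was not tested. At the threshold of the series, the 310 higher genes became 474 without a filter (437 lower, against 370) and 669 with pMES libraries 1 and 4 left out. The count ran from 229 to 712 with 1 library left out: 712 without pMES library 3 and 523 without pMES library 4. With library size alone 443 were higher and 267 lower. Members past this threshold numbered from 80 to 118 over all settings, from 92 to 109 with 1 library left out, and 81 with pMES libraries 1 and 4 left out. The members' median log2 fold change lay between 0.77 and 0.98 in these fits. They reuse the libraries that chose the members, so this range is no sign of stability. With library size alone the median of all genes was 0.06.

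With a replicate block in the fit, 376 genes and 80 members passed the threshold of the series, 0 genes passed an adjusted p of 0.05, and the members' median log2 fold change was 0.88. Only numbers 1 and 3 occur in both groups. In the block fit the contrast therefore rests on those libraries, and AQP1 library 2 and pMES library 4 do not inform it. Its counts are thus not like for like with the fit on all 6 libraries. The deviations of same-numbered libraries correlated across genes at 0.0831 and 0.13. Differently numbered libraries were not set beside these values, so they cannot decide whether the numbers mark pairs. In the reported fit the libraries were treated as sharing only a number.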
